A study of Mus musculus with 18 samples.

Results

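Liver transcripts were examined for 10 genes of the endoplasmic reticulum (ER) and its stress response. They were chosen by name among the 16245 genes of the count table, with earlier results of these data known. All were detected in each of the 18 livers. They comprised the lumenal chaperones and folding factors Hspa5, Hsp90b1, Calr, Pdia4 and Sdf2l1, the cochaperone Dnajb9, the degradation factor Herpud1, the stress sensor Ern1, and the transcription factors Xbp1 and Creb3l3. All livers came from wild-type C57BL/6 mice (males on the C57BL/6J background per the methods of the study), which were moved at 8 weeks of age to a diet that induces non-alcoholic steatohepatitis (NASH) and to 29 °C housing, and were single-housed. The vehicle group received the injection buffer, the GDF15 group received recombinant growth differentiation factor 15 subcutaneously once a day, and the pair-fed group was given the amount of food that the GDF15-treated mice had eaten, with 6 livers in each group. GDF15 is a circulating stress hormone that lowers food intake, and the pair-fed livers address which differences are also present when intake alone is matched. The labels list several doses without assigning one to each mouse, so no dose is given, and the age at collection was not given for these livers. The labels number the livers of each group and name no batch, so what the number stands for beyond the mouse is not known.

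The ER is where secreted and membrane proteins fold, and hepatocytes, which secrete most plasma proteins, are rich in it. When unfolded proteins accumulate, 3 sensors in the ER membrane respond, namely IRE1 (encoded by Ern1), PERK (Eif2ak3) and ATF6. IRE1 splices Xbp1 mRNA into the form that encodes an active transcription factor, ATF6 is cut in the Golgi to release another, and both raise transcription of chaperones and of ER-associated degradation, the route that returns misfolded proteins to the cytosol for the proteasome. PERK slows translation and favours translation of ATF4. CREB3L3 (CREBH) is a liver transcription factor released from the ER membrane by the same proteases as ATF6, and it is known for regulating lipid and acute-phase genes and for responding to fasting.

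The promoters of 4 of the genes held one of the sequence elements bound by ATF6 and XBP1 together with NF-Y. These are shown because the calls of the genes with and without an element are listed later. The ER stress response element (ERSE) was searched as CCAAT, 9 bases of any kind and CCACG, and ERSE-II as ATTGG, 1 base and CCACG, on both strands of the window from 250 bases before to 50 bases after each RefSeq transcript start (GRCm38.p6). All 10 genes had a window. An ERSE lay in the windows of Hspa5, Calr and Hsp90b1, the last with 2 copies, and an ERSE-II lay in that of Herpud1. Among all 32851 RefSeq windows of this length, 39 (0.119%) held an ERSE and 12 (0.0365%) an ERSE-II. The sequences read 5′ to 3′ on the strand of the gene, with the element in capitals, on either strand, and 20 bases to each side.
Hspa5: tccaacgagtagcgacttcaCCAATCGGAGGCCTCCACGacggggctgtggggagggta
Hsp90b1: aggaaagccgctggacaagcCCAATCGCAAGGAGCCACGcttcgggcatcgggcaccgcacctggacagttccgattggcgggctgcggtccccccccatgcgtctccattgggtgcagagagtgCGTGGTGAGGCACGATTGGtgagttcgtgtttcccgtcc
Calr: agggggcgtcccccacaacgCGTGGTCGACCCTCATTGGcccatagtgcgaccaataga
Herpud1: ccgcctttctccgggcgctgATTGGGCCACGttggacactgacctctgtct
The Hspa5 stretch is chr2:34772005-34772063 on the plus strand and ends 27 bases before the start of transcription. The Hsp90b1 stretch is chr10:86705513-86705676 on the minus strand, with the elements starting 212 and 107 bases upstream. The Calr stretch is chr8:84847055-84847113 on the minus strand, and its element, which starts 162 bases upstream, is read on the opposite strand to the gene. The Herpud1 stretch is chr8:94386357-94386407 on the plus strand, and its element starts 52 bases upstream. The other 6 genes, Pdia4, Sdf2l1, Dnajb9, Ern1, Xbp1 and Creb3l3, had neither arrangement in this window. The unfolded protein response element (TGACG directly followed by TGG), the cyclic AMP response element (TGACG followed by TCA) and the C/EBP-ATF element (TGATG, any base and AAT), searched on both strands, were in the windows of none of the 10 genes, against 0.676%, 1.79% and 0.965% of all windows. A match of letters is a description and does not show binding.

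Sequencing depth, as the sum of estimated counts, was 18059478 to 23215915 for vehicle livers. Library size differed between replicates 1 to 3 and 4 to 6 of the GDF15 and of the pair-fed livers. GDF15 replicates 1 to 3 had 21050932 to 25001486 counts and replicates 4 to 6 had 16508864 to 19108435, whereas pair-fed replicates 1 to 3 had 17180057 to 17926397 and pair-fed replicates 4 to 6 had 25047723 to 35301853. The labels name no batch, so results are also given for each of these sets. The 7 hepatocyte markers summed to 1439910 to 1851900 normalized counts in vehicle livers, 1297370 to 2085960 in pair-fed livers and 2060810 to 2413990 in GDF15 livers, and 6 of the 7 were higher with GDF15 than with vehicle. Stellate or fibroblast markers went the other way (7639 to 13019 in vehicle, 3839 to 5809 in GDF15 and 7015 to 10726 in pair-fed livers, 6 of 7 lower against vehicle), with 5 of 7 lower against pair-fed. Macrophage markers were lower for 5 of 7 against vehicle and 4 of 7 against pair-fed, and cholangiocyte markers for 5 of 5 and 1 of 5. Over all genes tested, 15.0% were higher and 16.7% lower against vehicle, and 13.1% were lower against pair-fed. B or plasma cell markers, from cells that are rich in ER, summed to 96.4 to 334 in vehicle livers, 68.1 to 167 in GDF15 livers and 79.98 to 394 in pair-fed livers. Of 8 pancreatic acinar markers, 4 were in the table, and their sum was 196 to 262 in vehicle, 230 to 575 in GDF15 and 193 to 222 in pair-fed livers. Most of it was Cela1, which was higher with GDF15 (0.60 against vehicle, DESeq2 adjusted p = 0.000907, and 0.81 against pair-fed, adjusted p = 6.67e-06), and Cela2a was higher against vehicle (1.79, adjusted p = 0.0292). Without Cela1 the sum was at most 5.09 in vehicle, 17.98 in GDF15 and 15.82 in pair-fed livers. In bulk liver a change in the share of a cell type and a change in RNA per cell cannot be told apart, and the part of these shifts in the results that follow was not tested.

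On a per-length scale (counts divided by the length of the longest protein-coding GENCODE M21 transcript and then by their total over genes, scaled as in transcripts per 1e6), the level in vehicle livers was highest for Calr, the calcium-binding lectin chaperone, at 709 ± 43.2 (SD, n = 6). Hsp90b1, which encodes GRP94, was at 519 ± 26.4, Hspa5, which encodes the HSP70 chaperone BiP, at 366 ± 58.8, and Herpud1 at 318 ± 61.4. Creb3l3 (271 ± 20.9), Xbp1 (185 ± 27.1) and the disulfide isomerase gene Pdia4 (158 ± 10.8) came next. Dnajb9 (48.1 ± 6.95), Sdf2l1 (34.1 ± 6.18) and Ern1 (16.0 ± 3.18) were lowest. Ranges over livers overlapped between Hspa5 (299 to 447) and Herpud1 (241 to 423), between Herpud1 and Creb3l3 (246 to 298), between Xbp1 (154 to 218) and Pdia4 (147 to 178), and between Dnajb9 (39.3 to 56.2) and Sdf2l1 (29.4 to 42.7). The order depended on the transcript chosen, since with the median transcript length Hsp90b1 came first and Ern1 eighth.

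Of the 10 genes, Herpud1 and Ern1 were higher in GDF15 than in vehicle livers and none was lower (DESeq2, Benjamini-Hochberg adjusted p under 0.05 over 15297 genes), a share of 2 in 10 where 31.7% of all genes tested were called in this comparison and 15.0% were called higher. Against pair-fed livers Herpud1 alone was called, against a background of 25.7% of all genes (12.6% higher). Between pair-fed and vehicle livers none of the 10 was called, and the background was 0%. At an unadjusted p under 0.05, DESeq2 called 2 of the 10 against vehicle, where 41.0% of all genes passed, and 2 against pair-fed, where 36.5% did. None of the 10 passed when an absolute log2 fold change above 1 was also required (6.09% and 3.29% of all genes). None had groups free of overlap in any comparison, against 12.2%, 9.73% and 0.209% of all genes. The estimates were positive for 9 of the 10 genes in GDF15 against vehicle, with a median log2 fold change of 0.18, and for 8 of 10 against pair-fed, with a median of 0.11. The median over all genes lay within 0.005 of 0 in each comparison. A shared direction was not tested, and the share of all genes with a positive estimate was not counted. Several of the 10 varied together between livers, so they are not independent. In replicates 1 to 3 alone, only Herpud1, Xbp1 and Creb3l3 had positive estimates against pair-fed. Both GDF15 comparisons share the GDF15 livers and both comparisons with vehicle share the vehicle livers.

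**Figure D1:**
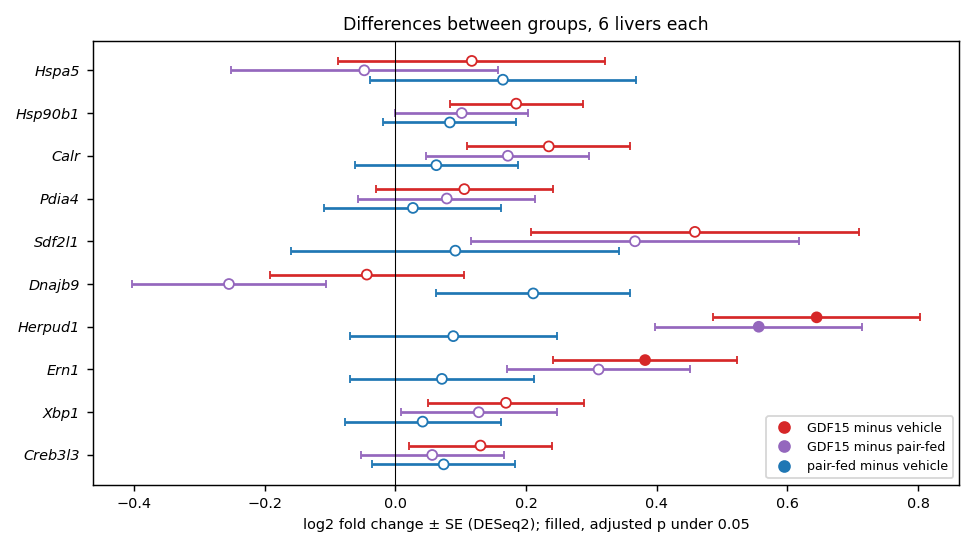
Log2 fold change (x axis) with its standard error from DESeq2 for each gene (y axis) in 3 comparisons of 6 against 6 livers, with filled points for adjusted p under 0.05. Herpud1 is filled in both GDF15 comparisons (0.64 and 0.56), Ern1 only against vehicle (0.38), and no pair-fed against vehicle point is filled.

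In the fit of all 18 livers, none of the lumenal chaperones and folding factors among the 10 genes passed the test between groups. Their values spread more widely in GDF15 than in vehicle livers. Hspa5, the master chaperone that also restrains the sensors, ranged from 10817 to 15908 normalized counts in vehicle livers with a median of 12866. In GDF15 livers its lowest, median and highest values were 7414, 14105 and 22759, and in pair-fed livers they were 11831, 14099.7 and 18447. The GDF15 values lay on both sides of the vehicle range, with 2 livers above it and 2 below. The log2 fold change was 0.12 ± 0.20 (SE) against vehicle (DESeq2 adjusted p = 0.708; 95% interval -0.28 to 0.52) and -0.05 ± 0.20 against pair-fed (adjusted p = 0.897). Both intervals include differences in either direction.

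Hsp90b1, the ER member of the HSP90 family, had the tightest vehicle values, from 13840 to 14963 with a median of 14134. In GDF15 livers it ran from 12275 through a median of 16675 to 20214, with 4 livers above and 2 below all vehicle livers, and in pair-fed livers from 13665 through 14800.1 to 17495. The log2 fold change was 0.18 ± 0.10 against vehicle (DESeq2 adjusted p = 0.157) and 0.10 ± 0.10 against pair-fed (adjusted p = 0.504). Calr ranged from 14117 to 16416 in vehicle (median 14977), from 13310 to 23683 in GDF15 (median 17582) and from 11566 to 19110 in pair-fed livers (median 16212). Here 4 GDF15 livers exceeded all vehicle livers, but the pair-fed range covered 5 of the 6 GDF15 values. Its log2 fold change was 0.23 ± 0.12 against vehicle (DESeq2 adjusted p = 0.140) and 0.17 ± 0.12 against pair-fed (adjusted p = 0.328).

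Pdia4 also spread most in GDF15 livers, while Sdf2l1 spread widely in both GDF15 and pair-fed livers. Pdia4 ranged from 3409 to 3878 in vehicle (median 3672), 2819 to 5602 in GDF15 (median 4028) and 3058 to 4348 in pair-fed livers (median 3715). Its log2 fold change was 0.11 ± 0.14 against vehicle (DESeq2 adjusted p = 0.596) and 0.08 ± 0.14 against pair-fed (adjusted p = 0.718). Sdf2l1 encodes a small lumenal protein that works with DNAJB cochaperones of BiP, and it had the largest estimate among these folding factors. It ranged from 304 to 465 in vehicle (median 345), 292 to 737 in GDF15 (median 499.9) and 178 to 571 in pair-fed livers (median 390). The log2 fold change of 0.46 ± 0.25 against vehicle did not pass (DESeq2 adjusted p = 0.154), nor did that of 0.37 ± 0.25 against pair-fed (adjusted p = 0.295). Thus none of Hspa5, Hsp90b1 and Calr, the genes with an ERSE, passed in either GDF15 comparison. Herpud1, the gene with an ERSE-II, passed in both, as given below. Of the genes with neither element, only Ern1 passed, and only against vehicle.

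Herpud1 encodes an ER membrane protein of the degradation machinery and was the gene that separated GDF15 livers most clearly. Its lowest, median and highest normalized counts were 4636, 5760.0 and 8300.3 in vehicle, 5021, 6284 and 8629 in pair-fed and 6883, 9706 and 12191 in GDF15 livers. Of the 6 GDF15 livers, 4 lay above every vehicle and every pair-fed liver, and the lower 2 overlapped the top of both ranges. The mean rose 1.56-fold, from 6040 ± 1214 to 9443 ± 2097 (SD, n = 6), a log2 fold change of 0.64 ± 0.16 (DESeq2 adjusted p = 0.000414). Against the pair-fed mean of 6422 ± 1276 the rise was 1.47-fold, or 0.56 ± 0.16 on the log2 scale (adjusted p = 0.00340). The edgeR quasi-likelihood test also called both (adjusted p = 0.00441 and 0.0133). The call against pair-fed livers was lost when only the 3 larger pair-fed libraries were kept (0.40, DESeq2 adjusted p = 0.141). These are pair-fed replicates 4 to 6, so library size and replicate set cannot be told apart. All GDF15 livers stayed in that fit. In the same livers the hepatocyte markers Hnf4a (0.54 ± 0.06, adjusted p = 4.10e-15) and Alb (0.42 ± 0.11, adjusted p = 0.00112) rose against vehicle, and their part in the result was not tested.

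Dnajb9 encodes ERdj4, a J-domain cochaperone that directs BiP to substrates for degradation and to IRE1. It ranged from 903 to 1390 in vehicle (median 1207), 777 to 1693 in GDF15 (median 1079) and 1203 to 1540 in pair-fed livers (median 1280). In the GDF15 group 5 of 6 livers were below every pair-fed liver, and the sixth, replicate 4, was above all of them. The log2 fold change was -0.25 ± 0.15 against pair-fed (DESeq2 adjusted p = 0.204) and -0.04 ± 0.15 against vehicle (adjusted p = 0.858). Without GDF15 replicate 4, the difference from pair-fed was -0.41 and passed the test (adjusted p = 0.00481).

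Among the sensor and transcription factor genes, Ern1 moved most. Its lowest, median and highest normalized counts were 838, 1013 and 1461 in vehicle, 990, 1144 and 1285 in pair-fed and 1127, 1338 and 1817 in GDF15 livers. The GDF15 group had 2 livers above every vehicle liver and 3 above every pair-fed liver, with the rest overlapping. The log2 fold change was 0.38 ± 0.14 against vehicle (DESeq2 adjusted p = 0.0247; edgeR 0.0391) and 0.31 ± 0.14 against pair-fed (DESeq2 adjusted p = 0.0860). The call against vehicle was lost with the replicate block in edgeR (adjusted p = 0.0548) and in replicates 1 to 3 alone (0.18, DESeq2 adjusted p = 0.392). It was also lost without GDF15 replicate 4 or 5 and without vehicle replicate 1, 2, 4 or 5, where the fold change lay between 0.30 and 0.49 over all samples left out in turn and the adjusted p reached 0.0922.

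Xbp1, the target of IRE1 splicing, ranged from 3051 to 4883 in vehicle (median 3722), 3642 to 5212 in GDF15 (median 4111) and 3427 to 4581 in pair-fed livers (median 3852). Its groups overlapped, and the log2 fold change was 0.17 ± 0.12 against vehicle (DESeq2 adjusted p = 0.288) and 0.13 ± 0.12 against pair-fed (adjusted p = 0.468). The values sum all transcripts of the gene, so spliced and unspliced Xbp1 were not told apart. Creb3l3 ranged from 5232 to 6650 in vehicle (median 5973), 5627 to 7481 in GDF15 (median 6658) and 4910 to 7943 in pair-fed livers (median 6475). In the GDF15 group 3 livers exceeded all vehicle livers and none exceeded all pair-fed livers. The log2 fold change was 0.13 ± 0.11 against vehicle (DESeq2 adjusted p = 0.386) and 0.06 ± 0.11 against pair-fed (adjusted p = 0.751).

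**Figure D2:**
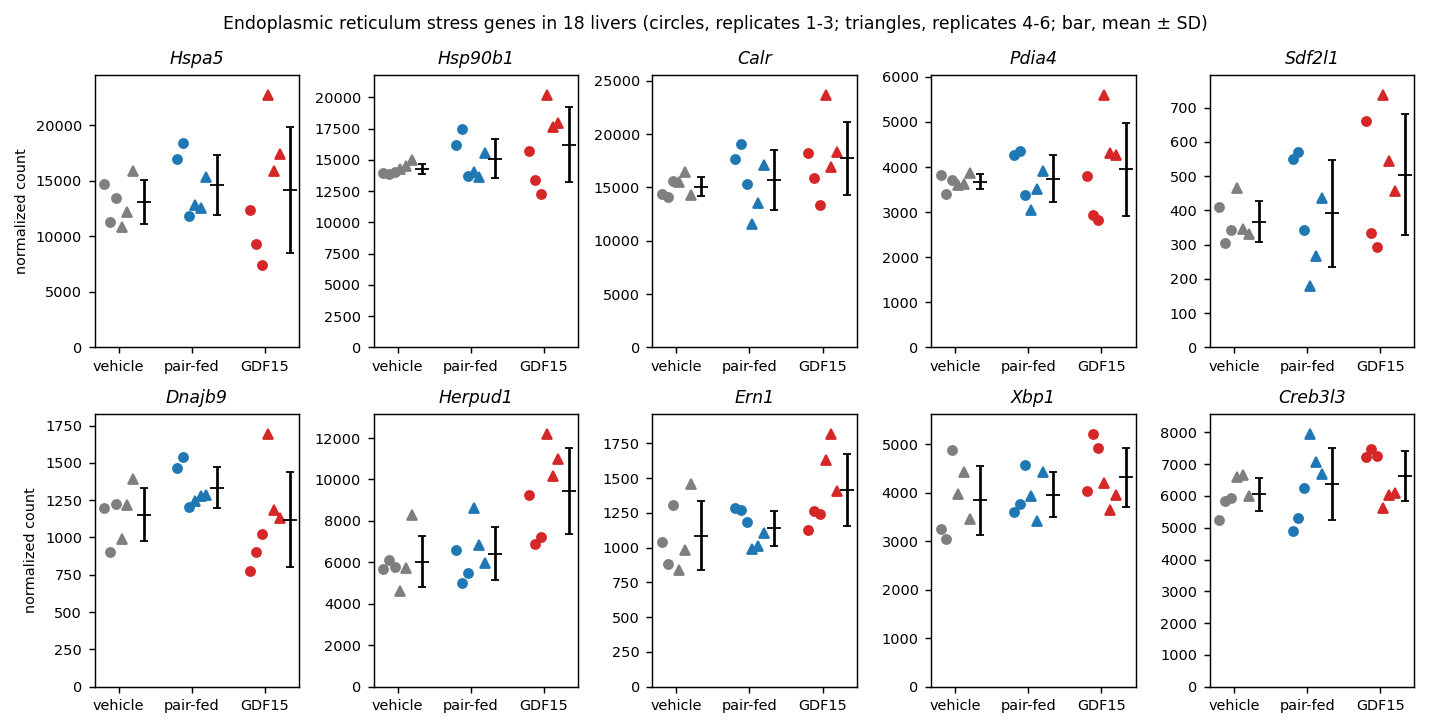
Normalized counts (y axis, from 0) of the 10 genes in each of 18 livers by group, with circles for replicates 1 to 3, triangles for replicates 4 to 6, and a bar at the mean with its SD. Herpud1 is high in most GDF15 livers (median 9706 against 5760.0 in vehicle), and in the GDF15 group the circles lie below the triangles for Hspa5, Hsp90b1 and Pdia4 but above them for Creb3l3.

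No difference between pair-fed and vehicle livers passed the test for any of the 10 genes. The log2 fold changes of pair-fed against vehicle ran from 0.03 (Pdia4) to 0.21 (Dnajb9), all positive, with DESeq2 adjusted p of 0.998 for each. None reached an unadjusted p under 0.05 by DESeq2 or by edgeR, where 4.42% of all 16242 genes did by DESeq2. The median of the 10 was 0.08. The 95% intervals were wide for some genes, from -0.24 to 0.56 for Hspa5 and from -0.40 to 0.58 for Sdf2l1, so differences within those bounds are not excluded.

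The spread between livers of the same group was large for these genes. The coefficient of variation over 6 livers had a median over the 10 genes of 15.26% in vehicle, 20.8% in GDF15 and 15.8% in pair-fed livers, compared with 8.82%, 10.7% and 9.85% over the 10883 genes whose mean normalized count reached 50. It exceeded that median for 6, 10 and 10 of the genes. In the GDF15 group it was highest for Hspa5 (39.8%), Sdf2l1 (35.1%) and Dnajb9 (28.4%), where vehicle values for the same genes were 15.19%, 16.2% and 15.33%. Hsp90b1 went from 2.95% in vehicle to 18.4% in GDF15 livers. In pair-fed livers the highest value was that of Sdf2l1 (40.01%).

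In the GDF15 group several of the genes differed between replicates 1 to 3 and replicates 4 to 6. Mean Hspa5 was 9699 in GDF15 replicates 1 to 3 and 18671 in replicates 4 to 6, while vehicle stayed at 13171 and 12989 and pair-fed was at 15747 and 13573. Fitted on replicates 1 to 3 alone, the comparison with vehicle called Creb3l3 (0.37, DESeq2 adjusted p = 0.00270) and Herpud1 (0.42, adjusted p = 0.0140) higher, with 21.4% of all genes called. In replicates 4 to 6 alone it called 5 of the genes higher, with 18.9% of all genes called. These were Herpud1 (0.84, DESeq2 adjusted p = 0.000524), Hsp90b1 (0.35, adjusted p = 0.000628), Hspa5 (0.52, adjusted p = 0.0177), Ern1 (0.57, adjusted p = 0.0177) and Pdia4 (0.35, adjusted p = 0.0430).

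The comparison with pair-fed livers diverged further between the sets. In replicates 1 to 3, Creb3l3 (0.42, DESeq2 adjusted p = 0.000618) and Herpud1 (0.45, adjusted p = 0.00661) were higher, and Hspa5 (-0.70, adjusted p = 0.00460) and Dnajb9 (-0.63, adjusted p = 0.000663) were lower, with 21.7% of all genes called. In replicates 4 to 6, 7 genes were higher, among them Sdf2l1 (0.98, DESeq2 adjusted p = 0.00837), Ern1 (0.65, adjusted p = 0.00606), Calr (0.48, adjusted p = 0.0249) and Hspa5 (0.46, adjusted p = 0.0447), and Creb3l3 was lower (-0.29, adjusted p = 0.0129), with 16.7% of all genes called. The other 3 that rose were Hsp90b1 (0.37), Pdia4 (0.44) and Herpud1 (0.64). Between pair-fed and vehicle livers none of the 10 was called in either set, where 0.0247% and 0.126% of all genes were. Herpud1 was the only one of the 10 that was called higher in both sets and in both comparisons. Hspa5 and Creb3l3 were called in opposite directions in the sets against pair-fed livers, although the difference between the sets itself was not tested.

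**Figure D3:**
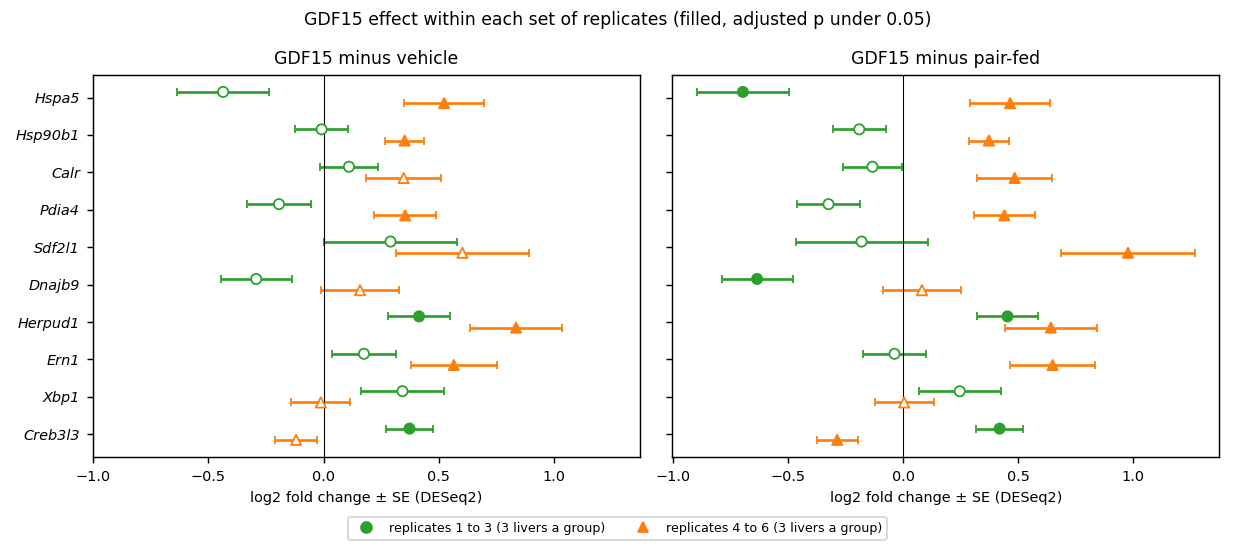
Log2 fold change (x axis) with its standard error from DESeq2 for each gene (y axis), fitted on replicates 1 to 3 (circles) and 4 to 6 (triangles) of all groups separately, for GDF15 against vehicle and against pair-fed, 3 livers a group. Hspa5 lies at -0.70 and 0.46 against pair-fed, Creb3l3 at 0.42 and -0.29, and Herpud1 above 0 in all 4 estimates.

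Genes that respond to feeding moved with the same sets. In GDF15 livers mean Fasn, which encodes fatty acid synthase, was 25990.4 in replicates 1 to 3 and 67150 in replicates 4 to 6. The insulin-responsive lipid gene Pnpla3 was at 73.0 and 459, and Igfbp1, a gene that is induced by fasting and by stress, was at 921 and 5204. Cpt1a, the entry enzyme of mitochondrial fatty acid oxidation, went the other way, with 12910 and 9040. Values of 1 set did not overlap those of the other for these 4 genes in the GDF15 group. Pair-fed livers had the opposite order for Fasn (62537 and 41678), Pnpla3 (248 and 132), Igfbp1 (1654 and 814) and Cpt1a (10410 and 15306). Of the 8 feeding genes examined, Pck1, which encodes a gluconeogenic enzyme, was the one called against vehicle (0.88 ± 0.29, DESeq2 adjusted p = 0.0110), and Pck1 (0.98 ± 0.29, adjusted p = 0.00506) and Irs2 (0.64 ± 0.19, adjusted p = 0.00604) were called against pair-fed, where 31.7% and 25.7% of all genes were called. The methods state that mice were killed in the fed state, without a time since the last meal for these livers. The part of feeding or library size in the set difference was not tested.

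Between livers of the same group, the folding factors rose and fell together. After subtraction of the group mean from variance-stabilized values, Pearson's r over 18 livers ran from 0.66 to 0.95 for the 10 pairs of Hspa5, Hsp90b1, Calr, Pdia4 and Sdf2l1, and from 0.51 to 0.92 over the 12 vehicle and pair-fed livers. Creb3l3 ran against all 5, with r from -0.74 to -0.65. Herpud1 was only loosely tied to them (-0.06 to 0.59 over 18 livers and -0.67 to 0.10 over the 12), as was Xbp1 (-0.41 to -0.02), and Ern1 lay between (0.31 to 0.63). These values share libraries and library preparation, and genes are not independent replicates.

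For 3 pairs with Hspa5, chosen after the correlations were seen and therefore given without a test, Pearson's r over 18 livers was 0.95 with Hsp90b1, -0.69 with Creb3l3 and 0.59 with Herpud1, and Spearman's rho was 0.91, -0.71 and 0.57. Leaving out the 2 livers farthest from the median of Hspa5 gave r of 0.90, -0.70 and 0.40, so the relation with Herpud1 was weaker without them. Centring on group and replicate set gave 0.90, -0.66 and 0.45, with 0.94, -0.61 and 0.37 in replicates 1 to 3 and 0.86, -0.73 and 0.57 in replicates 4 to 6.

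**Figure D4:**
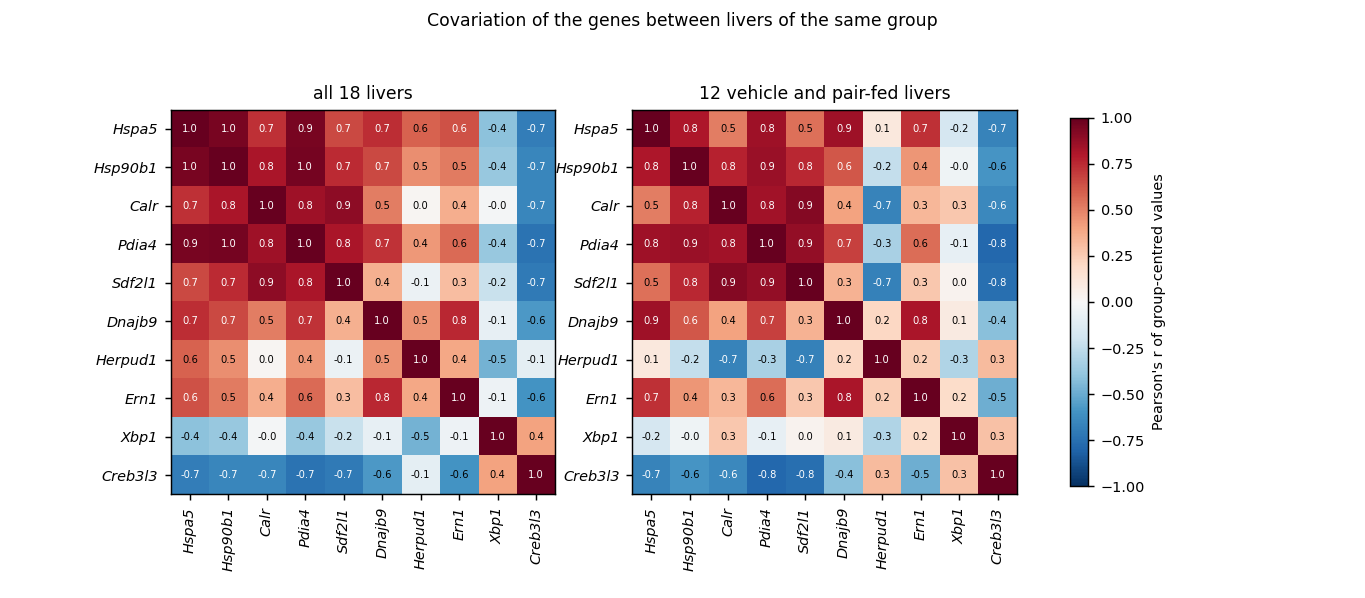
Pearson's r between the 10 genes (both axes) of variance-stabilized values with the group mean subtracted, over all 18 livers (left) and the 12 vehicle and pair-fed livers (right), coloured from -1 to 1. The 5 folding factors form a block of positive values (0.66 to 0.95 on the left), Creb3l3 is negative with each of them, and Herpud1 is lower in the right panel with each of them (0.59 and 0.10 with Hspa5).

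Of 10882 other genes above the same minimum, those most like Hspa5 over the 18 livers were Hyou1 (r = 0.99), which encodes an ER nucleotide exchange factor for BiP, Manf (0.97), an ER-stress-induced secreted factor, Atp2a2 (0.96), the ER calcium pump SERCA2, Morf4l2 (0.95) and Hsp90b1 (0.95). Over the vehicle and pair-fed livers alone, r for these 5 lay between 0.81 and 0.98. The genes most like Creb3l3 were Eci2 (0.96), an enzyme of fatty acid oxidation, Pbld1 (0.95), Cpt1a (0.95), Bnip3 (0.95), a mitophagy receptor, and Rab43 (0.94). For these 5, r over the 12 vehicle and pair-fed livers lay between 0.95 and 0.97.

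Of 83 further ER genes from 6 lists, 61 did not pass against vehicle and 62 did not pass against pair-fed livers. The lists were chosen with earlier results of these data known, so their shares beside those of all genes are a description. In these lists, 19 were higher and 3 lower in GDF15 than in vehicle livers (22.9% and 3.61%, against 15.0% and 16.7% of all genes), and 18 were higher and 3 lower against pair-fed (21.7% and 3.61%, against 12.6% and 13.1%). None was called between pair-fed and vehicle livers by DESeq2 or by edgeR. The median log2 fold change over the 83 was 0.09 against vehicle and 0.08 against pair-fed. Fitted on replicates 1 to 3 alone, 10 were higher and 6 lower against vehicle and 7 higher and 10 lower against pair-fed. In replicates 4 to 6 alone the counts were 23 and 1, and 31 and 1. Of all genes tested, 21.4% and 21.7% were called in replicates 1 to 3 against vehicle and pair-fed. In replicates 4 to 6 these shares were 18.9% and 16.7%. Genes of the lists called higher in both sets numbered 7 against vehicle and 4 against pair-fed. The share of all genes higher in both sets was not counted.

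Among 15 other ER chaperones and cochaperones, 5 rose and 1 fell against vehicle, where 15.0% of all genes were higher and 16.7% lower. Ppib, which encodes the lumenal proline isomerase cyclophilin B, rose from 3530.4 ± 209 to 4544 ± 543 normalized counts (SD, n = 6), a log2 fold change of 0.36 ± 0.07 (DESeq2 adjusted p = 2.18e-06), with no overlap between the groups. Dnajc3, a BiP cochaperone also known as p58IPK, rose by 0.32 ± 0.09 (adjusted p = 0.00117), and Sil1, a nucleotide exchange factor of BiP, by 0.26 ± 0.07 (adjusted p = 0.00115). Cnpy2 (0.23) and Sec63 (0.16) were the other 2 that rose. Sec63 was not called by edgeR (adjusted p = 0.0573), and 4 of the list were higher with edgeR and with the replicate block in DESeq2. Dnajc10, a J-domain protein with disulfide reductase activity, fell by 0.35 on the log2 scale (SE 0.08, adjusted p = 0.000391). Ppib and Dnajc3 were higher in both replicate sets against vehicle.

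Of 12 disulfide isomerases and oxidative folding genes, 5 rose and none fell in each GDF15 comparison by DESeq2. Over all genes, 15.0% were higher against vehicle and 12.6% against pair-fed. Prdx4, the ER peroxiredoxin that passes peroxide equivalents on to disulfide formation, rose from 1041 ± 33.0 in vehicle and 1038 ± 35.4 in pair-fed to 1399 ± 126 in GDF15 livers, without overlap with either. Its log2 fold change was 0.42 ± 0.06 against vehicle (DESeq2 adjusted p = 1.87e-12) and 0.43 ± 0.05 against pair-fed (adjusted p = 1.31e-12), and it was higher in both replicate sets. Erp44, which retains folding enzymes in the early secretory pathway, rose by 0.30 ± 0.06 against vehicle (adjusted p = 2.13e-06). Ero1b, a thiol oxidase that recharges disulfide isomerases, rose by 0.55 ± 0.16 (adjusted p = 0.00296), Pdia5 by 0.44 ± 0.14 (adjusted p = 0.00806) and Tmx1, a membrane thioredoxin, by 0.21 ± 0.06 (adjusted p = 0.00124).

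Of 20 genes for glycan processing and ER-associated degradation, the pathway of Herpud1, 7 rose and none fell against vehicle, and 6 rose and none fell against pair-fed. The shares of all genes that were higher were 15.0% and 12.6%. Ganab, which encodes the catalytic subunit of glucosidase II, rose by 0.37 ± 0.06 (DESeq2 adjusted p = 1.25e-07), and Os9, a lectin that hands misfolded glycoproteins to the ligase complex, by 0.31 ± 0.05 (adjusted p = 1.47e-07). Both were higher in both replicate sets against vehicle, and Os9 also against pair-fed. Edem1, a mannose-trimming factor, rose by 0.42 ± 0.09 (adjusted p = 7.74e-05), and the groups did not overlap. Mogs (0.34), Uggt1 (0.36) and Sel1l (0.21) also rose against vehicle. The call of Sel1l was narrow (DESeq2 adjusted p = 0.0479) and edgeR did not make it (adjusted p = 0.0658), and 6 of the list were higher with edgeR and with the block.

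At other steps of the secretory pathway 1 gene of each list was called against vehicle, where 31.7% of all genes were called and 15.0% were higher. In 16 genes of translocation and signal peptide processing, Ssr4, a subunit of the translocon-associated complex, rose by 0.24 ± 0.06 against vehicle (DESeq2 adjusted p = 0.000790) and 15 did not pass. In 9 genes of the COPII coat, which forms vesicles that leave the ER, Sar1b rose by 0.22 ± 0.06 (adjusted p = 0.000719) and 8 did not pass.

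**Figure D5:**
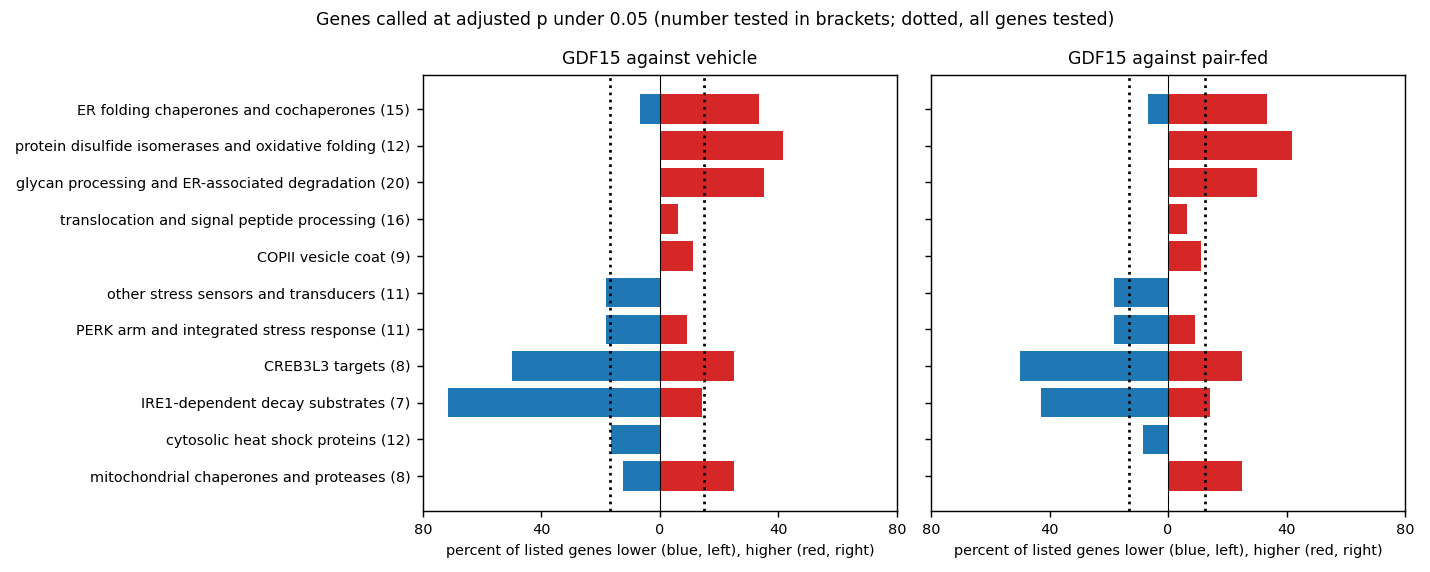
Percent of the genes of each list called lower (blue, to the left) and higher (red, to the right) at DESeq2 adjusted p under 0.05 in GDF15 against vehicle and against pair-fed livers, with dotted lines at the percent of all genes tested. The chaperone, oxidative folding and degradation lists lie past the dotted line to the right (5 of 15, 5 of 12 and 7 of 20 genes against vehicle, where 15.0% of all genes were higher). The lists of CREB3L3 targets and of IRE1-dependent decay substrates extend furthest to the left (4 of 8 and 5 of 7 against vehicle, where 16.7% of all genes were lower). All lists were chosen with earlier results of these data known, so these shares are a description.

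Of 11 other stress sensors and transducers, none was called higher and 2 were called lower in each GDF15 comparison. Of all genes, 15.0% were higher and 16.7% lower against vehicle, and 12.6% and 13.1% against pair-fed. Eif2ak3 (PERK) fell by 0.44 on the log2 scale against vehicle (SE 0.16, DESeq2 adjusted p = 0.0278) and by 0.57 against pair-fed (adjusted p = 0.00361). In replicates 1 to 3 it fell by 0.81 against vehicle (adjusted p = 3.34e-07), and in replicates 4 to 6 the difference was -0.12 (adjusted p = 0.735). Creb3l1 (OASIS), a relative of Creb3l3 that is known for driving collagen secretion, fell by 1.40 against vehicle (SE 0.22, adjusted p = 6.80e-09), from 57.7 ± 11.2 to 21.8 ± 3.97 normalized counts, alongside the fall of stellate and fibroblast markers. Atf6 (0.13 ± 0.08, adjusted p = 0.194) and Mbtps1, which encodes the first of the proteases that cut ATF6 and CREB3L3 (0.08 ± 0.05, adjusted p = 0.204), did not pass.

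Of 11 genes of the PERK arm and the integrated stress response, Atf3 and Nupr1 fell and Cebpb rose against both control groups, a count of 3 of 11 where 31.7% and 25.7% of all genes were called. Atf3, a stress-induced transcription factor, went from 147 ± 38.9 to 57.0 ± 15.65 normalized counts against vehicle, a log2 fold change of -1.37 ± 0.23 (DESeq2 adjusted p = 5.86e-08). Nupr1, a stress-induced nuclear protein, was at -1.13 ± 0.25 (adjusted p = 5.67e-05). Cebpb, a transcription factor of hepatocytes and myeloid cells, was at 0.47 ± 0.17 (adjusted p = 0.0232). Atf3 was called lower in both replicate sets against both control groups. In replicates 4 to 6 alone Nupr1 was not called against vehicle or pair-fed (DESeq2 adjusted p = 0.211 and 0.214). Cebpb was called against vehicle in neither set (DESeq2 adjusted p = 0.165 and 0.152), and against pair-fed only in replicates 1 to 3. The other 8, among them the genes for ATF4 and CHOP (Ddit3), did not pass in either comparison.

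The 8 targets of CREB3L3 were split, with 2 higher and 4 lower by DESeq2 in GDF15 livers against each control group. The shares of all genes higher and lower were 15.0% and 16.7% against vehicle and 12.6% and 13.1% against pair-fed. Apoa4, an apolipoprotein of triglyceride-rich particles, fell from 137386 ± 27837 in vehicle to 45580 ± 10786 normalized counts, a log2 fold change of -1.59 ± 0.16 (DESeq2 adjusted p = 2.86e-20), without overlap. Cidec, a lipid droplet protein, fell by 3.40 (SE 0.50, adjusted p = 8.72e-10), Apoc2, the activator of lipoprotein lipase, by 0.72 (SE 0.10, adjusted p = 6.92e-12), and Fgf21, a hepatokine induced by fasting, by 0.96 (SE 0.28, adjusted p = 0.00337). The acute-phase gene Crp rose by 0.34 ± 0.07 (adjusted p = 1.28e-05) and Hamp, which encodes the iron hormone hepcidin, by 1.89 ± 0.47 (adjusted p = 0.000532). The call of Fgf21 against pair-fed was narrow (-0.70, DESeq2 adjusted p = 0.0477), and edgeR did not make it (adjusted p = 0.0685). In replicates 4 to 6 alone Fgf21 was not called against vehicle or pair-fed (DESeq2 adjusted p = 0.536 and 0.513). Creb3l3 itself did not pass in these comparisons. Apoa4, Cidec, Apoc2 and Crp were called in the same direction in both replicate sets and against both control groups.

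Of 7 transcripts known as substrates of IRE1-dependent decay, 5 fell and 1 rose against vehicle, with a median of -0.90, and 3 fell and 1 rose against pair-fed, with a median of -0.50. Over all genes tested, 16.7% were lower and 15.0% higher against vehicle, and 13.1% and 12.6% against pair-fed. Against vehicle, Sparc (-1.14 ± 0.15, DESeq2 adjusted p = 6.32e-13), Col6a1 (-1.02 ± 0.16, adjusted p = 3.30e-09), Pdgfrb (-0.90 ± 0.16, adjusted p = 5.72e-07), Scara3 (-1.26 ± 0.33, adjusted p = 0.000876) and Pmp22 (-0.45 ± 0.16, adjusted p = 0.0201) fell, and Hgsnat, a lysosomal enzyme, rose (0.23 ± 0.08, adjusted p = 0.0145). Sparc, Col6a1 and Pdgfrb are matrix and mesenchymal genes that fibroblasts and stellate cells express, and the summed stellate markers fell in the same livers. Against pair-fed, Scara3 (-0.66, adjusted p = 0.127) and Pmp22 (-0.34, adjusted p = 0.10004) did not pass. The remaining substrate, Bloc1s1, did not pass (-0.05 ± 0.09, adjusted p = 0.669). The part of cell composition in the fall of these transcripts was not tested.

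Chaperones outside the ER were examined beside them, where 31.7% of all genes were called against vehicle. Of 12 cytosolic heat shock genes, Hspb1 fell by 1.11 (SE 0.23, DESeq2 adjusted p = 2.89e-05) and Hspa1a by 1.11 (SE 0.39, adjusted p = 0.0167) against vehicle, the latter at only 13.0 ± 5.66 normalized counts in GDF15 livers, and none rose. Of 8 mitochondrial chaperones and proteases, Dnaja3 (0.22 ± 0.05, adjusted p = 0.000167) and Clpp (0.20 ± 0.06, adjusted p = 0.00614) rose and Lonp1 fell by 0.09 (adjusted p = 0.0352), a call that edgeR did not make (adjusted p = 0.0665) and that was lost with the replicate block in DESeq2.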

How the data were processed

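Per the methods of the study, liver RNA was sequenced as paired reads, and the authors trimmed reads with Trim Galore and quantified transcripts with Salmon. The deposited table holds estimated counts by gene symbol, which the authors had made whole numbers and had not scaled for depth. The submitters' processing notes name mm10, and versions and the transcriptome are not given in the sources used here. The lowest row total was 5, so genes below it were not analysed here.

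Totals were 16508864 to 35301853 per library. Depth was ample for the 10 genes, so precision was set by the spread between livers. Counts were fitted with DESeq2 (1.42.0, R 4.3.3) on all 18 samples with group as the factor (Wald test, median-of-ratios scaling, independent filtering), and called at an adjusted p under 0.05. The study's additional threshold, an absolute log2 fold change above 1, was an alternative. edgeR (4.0.16) quasi-likelihood tests with TMM, thinning, filters, leaving out samples and a replicate block were other alternatives. The procedure was tested on simulated data. Animals are separate mice, but nothing gives litters or extraction days.

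Members and lists were chosen with earlier results of these data known. Up to 4 genes per list were named, those with the lowest adjusted p against vehicle, plus genes in counts of 5 or fewer; other names were chosen after their values were seen. The values of 1 gene of the degradation list are not reported here. The replicate numbers were checked for pairing. Deviations from group means correlated above 0.1 in 2, 3 and 4 of 6 same-numbered pairs in the 3 comparisons. Between pair-fed and vehicle livers, same-numbered pairs ran from 0.05 to 0.64 with a mean of 0.22, and other pairs averaged -0.04. With GDF15, same-numbered pairs averaged -0.07 against vehicle and 0.03 against pair-fed. The numbers were not treated as pairs in the main fit, and a structure shared by number between the control groups is not excluded. Transcript lengths matched 15759 of 16245 genes. Promoters came from RefSeq on GRCm38.p6.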

Additional observations from a re-analysis of the deposited data

How the results depend on the processing

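The DESeq2 counts of called genes (2 against vehicle, 1 against pair-fed, 0 between controls) moved under some settings. Requiring an absolute log2 fold change above 1 left 0 in both GDF15 comparisons. The replicate block in edgeR left 1 against vehicle (Ern1 lost, adjusted p = 0.0548), and the block in DESeq2 changed no call. Fitting only the 12 samples compared gave 2 against pair-fed. Replicates 4 to 6 alone gave 5 against vehicle and 8 against pair-fed, and replicates 1 to 3 alone gave 4 against pair-fed. Leaving out each liver gave 1 to 4 against vehicle (4 without GDF15 replicate 3, where Hsp90b1 and Calr passed), 1 to 2 against pair-fed and 0 to 0 between controls. Herpud1 stayed called when each liver was left out, at 0.56 to 0.76 against vehicle (adjusted p up to 0.00260) and 0.47 to 0.66 against pair-fed (adjusted p up to 0.0158).

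Log2 fold changes that turned sign were none of them called in the fit of all livers, and the cause was not tested. The 3 larger pair-fed libraries are pair-fed replicates 4 to 6 and the 3 smaller are replicates 1 to 3. Those fits kept all vehicle and GDF15 livers. Against vehicle, replicates 1 to 3 alone gave -0.44 for Hspa5, -0.0084 for Hsp90b1 and -0.19 for Pdia4 and replicates 4 to 6 alone gave 0.16 for Dnajb9, -0.012 for Xbp1 and -0.12 for Creb3l3. Leaving out 1 liver turned the sign there for Dnajb9 (-0.20 to 0.043), Hspa5 (-0.069 to 0.25) and Pdia4 (-0.020 to 0.19). Against pair-fed, the 3 larger pair-fed libraries gave 0.066 for Hspa5 and -0.13 for Creb3l3, the 3 smaller pair-fed libraries gave -0.015 for Pdia4, replicates 1 to 3 alone gave -0.19 for Hsp90b1, -0.13 for Calr, -0.32 for Pdia4, -0.18 for Sdf2l1 and -0.038 for Ern1 and replicates 4 to 6 alone gave 0.46 for Hspa5, 0.081 for Dnajb9 and -0.29 for Creb3l3. Leaving out 1 liver turned the sign there for Creb3l3 (-0.0068 to 0.13), Hspa5 (-0.23 to 0.084) and Pdia4 (-0.046 to 0.16). Between pair-fed and vehicle, the 3 larger pair-fed libraries gave -0.10 for Calr, -0.074 for Pdia4, -0.32 for Sdf2l1 and -0.071 for Ern1, the 3 smaller pair-fed libraries gave -0.083 for Herpud1 and -0.14 for Creb3l3, replicates 1 to 3 alone gave -0.038 for Herpud1 and -0.045 for Creb3l3 and replicates 4 to 6 alone gave -0.020 for Hsp90b1, -0.14 for Calr, -0.085 for Pdia4, -0.37 for Sdf2l1, -0.083 for Ern1 and -0.016 for Xbp1. Leaving out 1 liver turned the sign there for Calr (-0.00097 to 0.14), Herpud1 (-0.014 to 0.20), Pdia4 (-0.021 to 0.079), Sdf2l1 (-0.047 to 0.24) and Xbp1 (-0.018 to 0.12).

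The counts for the 83 further ER genes under edgeR, the replicate block and each replicate set were added after the data were seen. They called 17 higher and 3 lower with edgeR and 18 and 3 with the block in DESeq2 against vehicle. For the 10 genes, thinning every library to the smallest total changed no call.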
